A study of Homo sapiens with 12 samples.

Results

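The interleukin-1 (IL1) family, the IL6 family and IL24 were followed through knockdown and re-expression of EZH2 in BJ cells, a human foreskin fibroblast line. The 10 genes were IL1A, IL1B, IL1RN, IL33 and IL1R1 of the IL1 system, IL6, IL11, LIF and IL6ST of the IL6 family, and IL24 of the IL20 subfamily. They are 10 of the 20046 genes named by a probe on the array. They were chosen by their measured rise after knockdown and their return on re-expression, together with the ligands and receptors that belong with them. All their probes were taken, 16 of 47231. The knockdown and return values below are therefore a description, and support nothing by themselves. The contrast between both re-expressed forms of EZH2 was not itself used in the choice, and it was tested. It uses the re-expression arrays that also enter the return, so it is not fully independent of the choice.

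The study had 12 Illumina BeadChip arrays in 4 groups of 3, with every cell population first transduced with a lentivirus for 72 h and then transfected with small interfering RNA for 60 h. The si-Control group carried the control virus LV-C and a control siRNA, and the si-EZH2 group carried LV-C and an siRNA against EZH2. The EZH2 re-expression group carried a virus for RNAi-resistant EZH2 and the T350A re-expression group one for RNAi-resistant EZH2 with the T350A change, both together with the EZH2 siRNA. T350A puts alanine in the place of a threonine that cyclin-dependent kinases phosphorylate. The promoter of the viruses is not given in the labels. The labels give the arrays of a group as replicates and do not say that they came from separate cultures, so errors and p-values cover the spread between these arrays, which may be technical. All 12 arrays lay on 1 chip. The si-Control arrays held sections A, C and F, and the si-EZH2 arrays E, G and H. Sections I, J and K held EZH2 re-expression, and B, D and L held T350A re-expression. The groups were thus not spread evenly over the chip. Beyond a setting with chip section as a covariate, the part of position in the results was not tested.

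EZH2 is the catalytic subunit of Polycomb repressive complex 2, which methylates histone H3 and keeps many developmental and inflammatory genes silent. IL1A and IL1B bind the receptor IL1R1 and switch on NF-kB, while IL1RN occupies the same receptor without signalling and IL33, the IL1 family's alarm signal of stromal nuclei, uses a different receptor. IL6, IL11 and LIF each bind a receptor chain of their own and then share the signalling chain IL6ST, also called gp130, which activates the kinase JAK1 and the transcription factor STAT3. IL24 signals to epithelial cells through receptors that contain IL20RB. Fibroblasts make IL6, IL11 and IL1 when stressed, wounded or senescent, and IL1 acting on fibroblasts is itself a strong inducer of IL6, IL11 and LIF.

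The sequences just upstream of the 5 genes that were higher after knockdown are shown because these genes moved together while their promoters differed in composition. Each sequence is the 250 bases before the RefSeq transcription start on GRCh38.p14, written 5′ to 3′ on the strand of the gene. Capitals mark matches to 4 motifs searched on both strands, namely the NF-kB consensus, AP-1 (TGACTCA), C/EBP (TTGCNNAA) and STAT (TTCNNNGAA), and no matches overlapped in these windows. The search window also took in 50 bases after the start.
IL6, chr7:22726950-22727199, plus strand: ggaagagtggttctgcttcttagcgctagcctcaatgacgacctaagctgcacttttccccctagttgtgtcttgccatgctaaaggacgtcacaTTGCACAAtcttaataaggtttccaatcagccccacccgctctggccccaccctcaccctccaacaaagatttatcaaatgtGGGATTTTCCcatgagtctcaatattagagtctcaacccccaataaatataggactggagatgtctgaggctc
IL1B, chr2:112836780-112837029, minus strand: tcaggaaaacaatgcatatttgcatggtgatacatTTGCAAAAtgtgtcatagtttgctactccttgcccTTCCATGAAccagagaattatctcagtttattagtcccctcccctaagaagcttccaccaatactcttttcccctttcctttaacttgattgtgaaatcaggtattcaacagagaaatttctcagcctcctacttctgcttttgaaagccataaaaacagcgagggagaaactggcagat
IL1A, chr2:112784494-112784743, minus strand, the first of its RefSeq starts: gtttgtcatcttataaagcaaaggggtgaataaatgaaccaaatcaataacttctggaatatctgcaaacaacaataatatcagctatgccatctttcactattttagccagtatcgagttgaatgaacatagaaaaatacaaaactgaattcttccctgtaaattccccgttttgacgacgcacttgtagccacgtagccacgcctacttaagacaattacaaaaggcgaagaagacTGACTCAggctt
IL11, chr19:55370464-55370713, minus strand: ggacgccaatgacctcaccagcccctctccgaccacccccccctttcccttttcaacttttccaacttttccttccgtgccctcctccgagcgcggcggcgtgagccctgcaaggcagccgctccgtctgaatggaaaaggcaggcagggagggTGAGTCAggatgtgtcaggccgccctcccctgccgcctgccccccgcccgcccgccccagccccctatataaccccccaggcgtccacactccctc
IL24, chr1:206897193-206897442, plus strand: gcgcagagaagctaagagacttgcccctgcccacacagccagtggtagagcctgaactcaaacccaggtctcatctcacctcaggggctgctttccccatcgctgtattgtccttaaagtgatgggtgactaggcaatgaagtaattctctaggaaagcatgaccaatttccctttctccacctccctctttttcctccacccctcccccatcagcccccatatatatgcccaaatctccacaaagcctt

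The IL6 sequence held the NF-kB match GGGATTTTCC at -73 to -64 and the C/EBP match TTGCACAA at -155 to -148, counted from the start. The IL1B sequence held a C/EBP match at -215 to -208 and a STAT match at -180 to -172. IL1A had AP-1 matches at -12 to -6 and, past the start, at 39 to 45, and IL11 had 1 AP-1 match on the opposite strand at -96 to -90. The IL24 window held none of the 4 motifs. Over all 35116 windows of the same length, 11.3% held the NF-kB motif, 4.95% AP-1, 10.5% C/EBP and 7.66% STAT. Single matches of this kind were thus found in many windows, from 1738 for AP-1 to 3956 for NF-kB. A match describes letters in this window and not a bound site. Base composition also varied, with a ratio of observed to expected CpG of 0.155 for IL1B, 0.214 for IL24, 0.405 for IL6, 0.603 for IL11 and 0.680 for IL1A, against a median of 0.579 over all windows. RefSeq windows matched 9 of the 10 members, and LIF was not among them.

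The targeted transcript was read by 3 probes. After knockdown EZH2 was lower on all 3, by 0.94 ± 0.13 (ILMN_1652913), 1.09 ± 0.13 (ILMN_1708105) and 0.98 ± 0.12 (ILMN_2364529) in log2 units (limma SE, n = 3 per group, adjusted p from 0.000169 to 0.000507). ILMN_2364529 was detected on 0 of 3 si-EZH2 arrays, so its knockdown difference is a bound, at least 1.61-fold lower. With re-expression, 2 of the probes read above the control. On ILMN_1652913 the si-Control mean of 6.33 compared with 5.39 after knockdown, 8.55 under the EZH2 virus and 7.99 under the T350A virus. ILMN_1708105 stayed low with both viruses, at 5.84 and 5.91 against 5.70 in si-EZH2. The T350A virus gave less EZH2 signal than the EZH2 virus, by 1.29 ± 0.12 on ILMN_2364529 (adjusted p = 0.000254) and by 0.56 ± 0.13 on ILMN_1652913 (adjusted p = 0.211). Beside every T350A value below stands this lower level of re-expressed transcript, and its part in the results was not tested.

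A probe was taken as detected on an array at a detection p under 0.05, and the 23313 probes detected on 3 arrays or more, of 12640 genes, were tested. Among the 16 member probes 11 passed, and they covered 8 of the 10 genes. Values are normalized log2 intensities, and each gene is represented by its probe with the highest mean. Between 20658 and 21910 probes were detected per array, the median raw intensity was 59.9 to 73.8, and replicate arrays correlated at 0.9934 to 0.9949. All 12 fibroblast markers were detected, while 5 of 8 epithelial markers, 6 of 8 endothelial markers and 6 of 12 leukocyte markers, among them PTPRC, LYZ and CD3E, were detected on no array. Other markers of these lists were read on all 12 arrays, namely CD79A and HLA-DRA of leukocytes, EPCAM of epithelium and TEK of endothelium. Of the 5 leukocyte markers tested 4 read higher after knockdown, by a median of 0.051 over the 5, and none was called. CD79A was called higher with EZH2 re-expression than in si-EZH2, by 0.40 (limma, adjusted p = 0.0499), and than in si-Control, by 0.42 (adjusted p = 0.0236). EPCAM was called lower with T350A re-expression than in si-Control, by 0.62 (limma, adjusted p = 0.0055). The summed raw intensity of the 12 leukocyte markers, most of it background, was 790.2 to 927.9 in si-Control, 758.9 to 832.4 in si-EZH2, 764.4 to 811.6 under the EZH2 virus and 789.7 to 863.7 under the T350A virus. The summed raw intensity of the fibroblast markers was 189300 to 214600 in si-Control, 175500 to 196800 in si-EZH2, 156300 to 157700 with EZH2 re-expression and 162600 to 198400 with T350A re-expression. These sums are not normalized, and in normalized values 0 of the 12 fibroblast markers were called in any of the 6 comparisons. The part of these markers in the results was not tested.

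Of the IL1 ligands, IL1A and IL1B were both higher after knockdown. IL1A, the IL1 form that is active as a precursor and on the cell surface, read 7.38, 7.25 and 7.40 under si-Control, against 8.49, 8.26 and 8.36 under knockdown. Re-expressed EZH2 gave 7.59, 7.51 and 7.71, while the T350A form gave 7.64, 7.51 and 7.87 (probe ILMN_1658483). In normalized values every si-EZH2 array stood above the other 9, every re-expression array stood above every si-Control array, and both re-expression groups overlapped. The mean difference from si-Control was 1.03 ± 0.11 (limma SE) after knockdown, which is 2.04-fold. The mean raw intensity was 216.6 ± 18.8 (SD, n = 3) in si-Control and 364.3 ± 41.2 in si-EZH2. It was 219.6 ± 19.2 with EZH2 re-expression and 241.8 ± 23.4 with T350A, and both groups overlapped si-Control in raw intensity.

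IL1B, which is made as an inactive precursor and cut by caspase-1, read 9.27, 9.47 and 9.30 under si-Control, against 10.77, 10.55 and 10.81 under knockdown. Re-expressed EZH2 gave 10.04, 9.96 and 10.06, while the T350A form gave 10.28, 10.07 and 10.10 (probe ILMN_1775501). In normalized values the 4 groups did not overlap on any array, in the order si-Control, EZH2 re-expression, T350A re-expression and si-EZH2. The highest array under re-expressed EZH2, at 10.06, was just below the lowest T350A array, at 10.07. In raw intensity the re-expression groups overlapped, with EZH2 up to 1084 and T350A from 1076. IL1B was higher by 1.36 ± 0.11 after knockdown, or 2.57-fold.

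The antagonist IL1RN and the alarm cytokine IL33 could not be read. IL1RN was detected on 1 of 36 probe and array pairs, a si-EZH2 array with a raw intensity of 64.51, and its raw values otherwise lay at 38.75 and above with no detection. IL33 was detected on 0 of 24, with raw values from 34.84 to 61.7 and a smallest detection p of 0.164. Neither entered the test, so the balance between IL1 and its antagonist was not measurable on these arrays.

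IL6, the ligand of the acute-phase response, showed the same order of group means. It read 8.88, 9.07 and 8.96 under si-Control, against 10.50, 10.37 and 10.63 under knockdown. Re-expressed EZH2 gave 10.02, 9.78 and 9.36, while the T350A form gave 9.94, 9.72 and 9.88 (probe ILMN_1699651). The si-EZH2 arrays were above all others, the si-Control arrays below all others, and the re-expression groups overlapped, with the third EZH2 re-expression array the lowest of the 6. The knockdown difference was 1.53 ± 0.14, or 2.88-fold, and the raw mean went from 579.9 in si-Control to 1470 in si-EZH2.

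IL11, which shares IL6ST with IL6 and drives matrix production in fibroblasts, read 6.79, 6.46 and 6.29 under si-Control, against 7.64, 8.16 and 7.85 under knockdown. Re-expressed EZH2 gave 6.95, 7.22 and 7.13, while the T350A form gave 7.06, 7.21 and 7.41 (probe ILMN_1788107). The spread within groups was wider than for IL1B, at an SD of 0.25 in si-Control and 0.26 in si-EZH2. In normalized values the re-expression arrays still lay between both of these groups without overlap. In raw intensity si-Control reached 170.2 and EZH2 re-expression began at 150.2. The knockdown difference was 1.37 ± 0.15, or 2.59-fold.

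LIF, the IL6 family ligand best known for holding stem cells undifferentiated, read 5.01, 4.70 and 5.03 under si-Control, against 5.17, 5.01 and 5.26 under knockdown (probe ILMN_1738725). Its values were 5.11, 4.69 and 5.09 under the EZH2 virus and 5.21, 4.74 and 5.12 under the T350A virus. It was detected on 9 of 12 arrays, and its raw intensity never left the range from 56.62 to 80.78. All 4 groups overlapped, the difference after knockdown was 0.23 ± 0.15, and LIF was not called in any comparison. The 95% interval of the knockdown difference ran from -0.084 to 0.55.

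IL24 had the largest knockdown difference of the 8 members tested. This cytokine, first found as a gene that rises when melanoma cells differentiate, read 6.39, 6.85 and 6.62 under si-Control, against 8.61, 8.54 and 8.57 under knockdown. Re-expressed EZH2 gave 7.28, 7.03 and 7.05, while the T350A form gave 7.49, 7.62 and 7.42 (probe ILMN_1774685). As for IL1B, no groups overlapped in normalized values and the order was si-Control, EZH2 re-expression, T350A re-expression and si-EZH2. In raw intensity si-Control reached 160.3 and EZH2 re-expression began at 155.8. The knockdown difference was 1.95 ± 0.12, or 3.88-fold, and the raw mean went from 147.8 to 413.1, with 167.2 under re-expressed EZH2 and 220.3 under T350A.

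The second IL24 probe, ILMN_1725814, was dim. It was detected on 0 of 3 si-Control arrays, 3 of 3 si-EZH2 arrays, 1 of 3 arrays with EZH2 re-expression and 2 of 3 with T350A re-expression. Since si-Control was not well above background, the knockdown difference on this probe is a bound, at least 1.39-fold higher in si-EZH2. Its log2 values after knockdown were 5.39, 5.25 and 5.63. Re-expressed EZH2 gave 4.66, 5.23 and 4.84, the T350A form gave 4.87, 5.05 and 5.43, and here the re-expression groups overlapped.

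**Figure D1:**
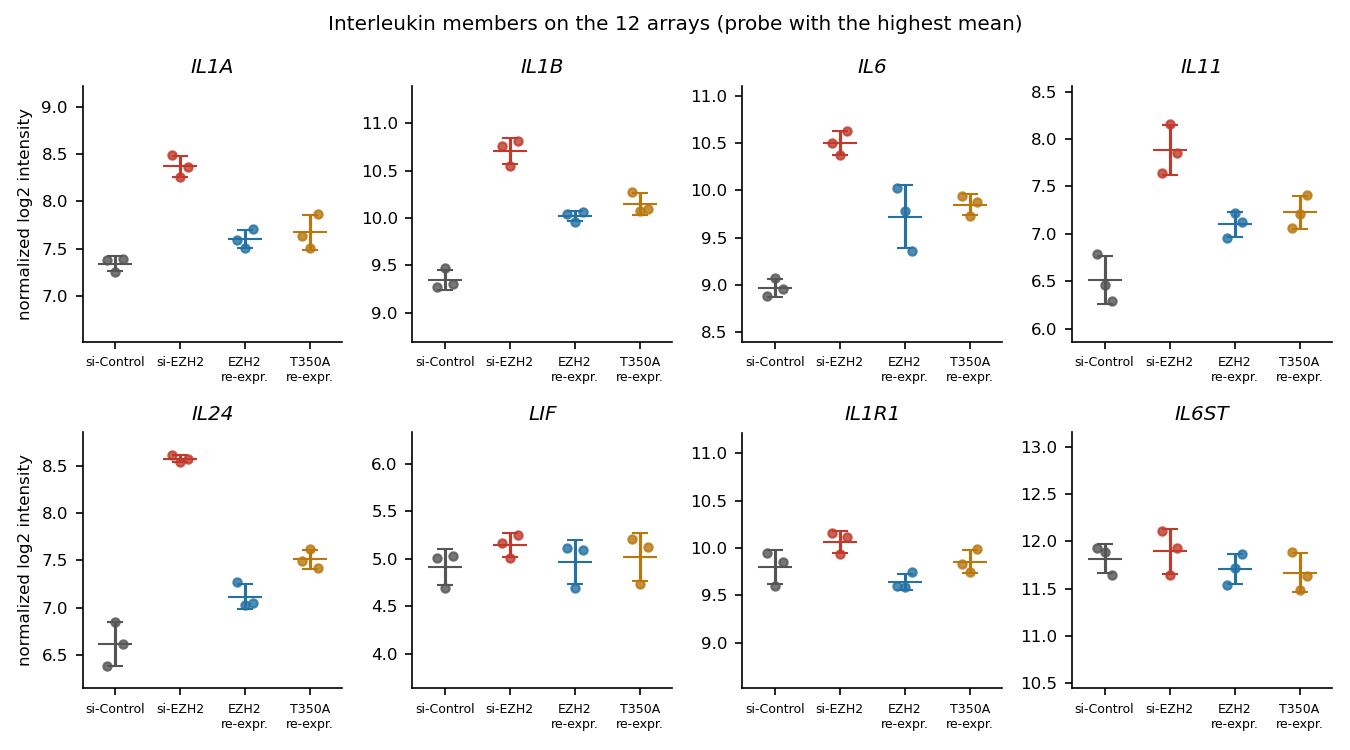
Normalized log2 intensity (vertical axis, a scale of equal length but different start in each panel) of the 8 members tested on each of the 12 arrays, by group. Points are arrays, horizontal lines are group means and error bars are SDs of 3 arrays. IL1A, IL1B, IL6, IL11 and IL24 have their si-EZH2 arrays above all others and their re-expression arrays in between, while the groups of LIF and IL6ST overlap.

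Neither receptor was called after knockdown. IL1R1, the signalling receptor for IL1A and IL1B, read 9.95, 9.60 and 9.85 under si-Control, against 10.15, 9.94 and 10.11 under knockdown, a difference of 0.26 ± 0.12 with overlapping arrays. Re-expressed EZH2 gave 9.60, 9.58 and 9.74, while the T350A form gave 9.84, 9.75 and 9.99 (probe ILMN_1810584). All EZH2 re-expression arrays were below all si-EZH2 arrays, by 0.43 ± 0.12 on average, and this difference was not called, although it was under 9 of 24 other settings.

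IL6ST was read by 3 probes at different brightness. On the brightest, ILMN_1849013, it read 11.93, 11.88 and 11.64 under si-Control, against 12.11, 11.64 and 11.93 under knockdown. Re-expressed EZH2 gave 11.54, 11.72 and 11.86, while the T350A form gave 11.89, 11.49 and 11.63. The knockdown difference was 0.08 ± 0.14 there, 0.11 ± 0.12 on ILMN_1797861 and 0.26 ± 0.17 on ILMN_1746604. None of the 3 probes was called in any of the 6 comparisons, and the groups overlapped on each after knockdown.

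Counted over the 8 members tested, 5 were called higher after knockdown (IL1A, IL1B, IL6, IL11 and IL24) and 0 lower, where called means an adjusted p under 0.05 in limma over all tested probes. Among all 12640 tested genes 1.95% were called higher and 1.5% lower. Since the members were chosen with this contrast, nothing is read from the excess. The median difference of the 8 was 1.19, against -0.0015 for all tested genes.

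With EZH2 re-expression 5 of 8 members were called lower than in si-EZH2, beside 1.8% of all genes called lower and 1.87% called higher. They were the 5 genes called higher after knockdown. The differences were -0.76 ± 0.11 for IL1A, -0.69 ± 0.11 for IL1B, -0.78 ± 0.14 for IL6, -0.79 ± 0.15 for IL11 and -1.45 ± 0.12 for IL24. The IL6 call was lost without the third si-EZH2 array and the IL11 call without the first EZH2 re-expression array.

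With T350A re-expression 2 of 8 members were called lower than in si-EZH2, IL1A and IL24, beside 0.0791% of all genes called lower and 0.0316% called higher. The differences were -0.70 ± 0.11 for IL1A, -0.56 ± 0.11 for IL1B, -0.65 ± 0.14 for IL6, -0.66 ± 0.15 for IL11 and -1.06 ± 0.12 for IL24. The number called turned on the processing: all 5 were called under 6 other settings. IL24 alone was called when si-Control replicate 3, si-EZH2 replicate 1 or 3, EZH2 re-expression replicate 1, or T350A re-expression replicate 1 or 2 was left out. A call made for EZH2 and missed for T350A is not a test of a difference between them, and both forms share the si-EZH2 arrays.

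**Figure D2:**
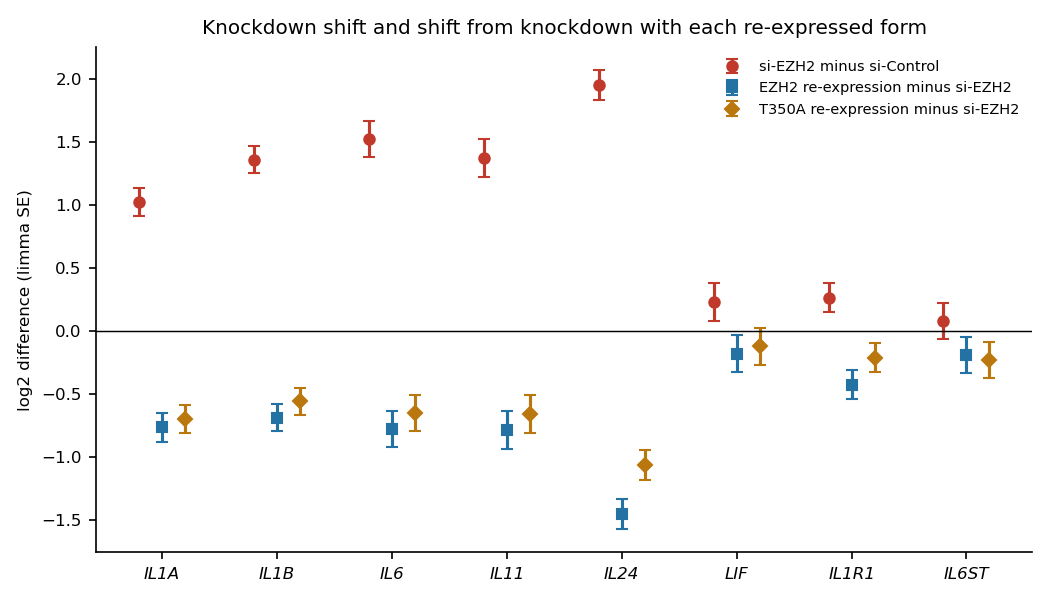
Log2 difference (vertical axis) of the 8 members after knockdown (circles, si-EZH2 minus si-Control) and on re-expression of EZH2 (squares) or T350A (diamonds), both against si-EZH2, with limma standard errors. For IL1A, IL1B, IL6, IL11 and IL24 the knockdown difference is between 1.03 and 1.95 and both forms lie on the other side of 0, and the squares are further from 0 than the diamonds in each of these 5 genes.

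The fall can be written as a share of the knockdown difference. EZH2 re-expression took back 74.6 ± 9.87% of it for IL1A, 50.4 ± 6.77% for IL1B, 50.8 ± 8.07% for IL6, 57.3 ± 9.56% for IL11 and 74.4 ± 5.53% for IL24 (SE, from the fit). T350A re-expression took back 67.8 ± 9.69% for IL1A, 41.0 ± 6.8% for IL1B, 42.5 ± 8.1% for IL6, 48.0 ± 9.53% for IL11 and 54.3 ± 5.33% for IL24. The median of the 5 genes was 57.3% with EZH2 and 48.0% with T350A. These shares use the same si-Control and si-EZH2 arrays for both forms and are not independent of each other.

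In normalized values neither form brought the group means of the 5 genes down to the control. The raw IL1A mean with EZH2 re-expression, at 219.6, was close to the 216.6 of si-Control. Against si-Control, IL1B was still higher by 0.67 ± 0.11 with EZH2 and by 0.80 ± 0.11 with T350A, and IL6 by 0.75 ± 0.14 and 0.88 ± 0.14. IL11 was higher by 0.59 ± 0.15 and 0.72 ± 0.15, and IL24 by 0.50 ± 0.12 and 0.89 ± 0.12. IL1A came closest, at 0.26 ± 0.11 and 0.33 ± 0.11. These 4 genes other than IL1A were called higher in both comparisons, beside 4.32% of all genes with EZH2 re-expression and 2.11% with T350A re-expression. The IL1A difference with EZH2 fell to 0.14 under another setting, chip section as a covariate, and moved by over 1.5 times with median scaling too. The IL11 call in both comparisons was lost without si-Control replicate 2 or 3 and without replicate 2 or 3 of the re-expressed form, and with EZH2 also with no filter. The IL24 call with EZH2 re-expression was lost without si-Control replicate 1 or 3 without replicate 1 of that form, with median scaling and with only the groups compared. With EZH2 re-expression the count was 2, IL1B and IL6, without si-Control replicate 3, and 1, IL1B, with chip section as a covariate.

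The direct comparison of the re-expressed forms asked whether the levels of these genes differed between cells given EZH2 and cells given its T350A form. None of the 8 members differed at the threshold (limma, adjusted p over all tested probes), and 0% of the 12640 genes, each read by its brightest probe, were called in either direction. Of the 23313 probes 2 were called, both lower with T350A, and one of them was the EZH2 probe ILMN_2364529. With the adjustment over 1 probe per gene 6 genes were called, no member among them. At an unadjusted p under 0.05 there were 1 member, IL24, and 2050 of the 23313 probes. The members were higher with T350A in 7 of 8 cases, and their median difference was 0.13, against -0.0017 for all tested genes. Several members went together over the 12 arrays, such as IL1B and IL6 (correlation 0.963), so these are not 8 separate readings. In normalized values all 3 T350A arrays stood above all 3 EZH2 arrays for IL1B, IL1R1 and IL24, where 7.77% of all tested genes had that arrangement.

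IL24 had the widest gap between the forms. It was higher with T350A by 0.39 ± 0.12, with a 95% interval from 0.14 to 0.65, which is 1.31-fold, and the adjusted p was 0.36 (unadjusted p = 0.00498). The second IL24 probe differed by 0.21 ± 0.16 (adjusted p = 0.772). The interval for IL24 leaves out 0 before adjustment for the number of probes, and the difference did not pass after it.

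For the others the interval of the difference bounds what could have been missed. T350A minus EZH2 was 0.07 for IL1A (95% interval -0.17 to 0.31), 0.13 for IL1B (-0.098 to 0.35), 0.13 for IL6 (-0.18 to 0.43) and 0.13 for IL11 (-0.19 to 0.45). It was 0.06 for LIF (-0.26 to 0.37), 0.21 for IL1R1 (-0.03 to 0.46) and -0.04 for IL6ST (-0.34 to 0.26). The adjusted p-values of these 7 genes in limma ran from 0.624 for IL1R1 to 0.964 for IL6ST. For IL1A, IL6, LIF and IL6ST the sign changed when single arrays were left out. The IL1B difference fell to 0.064 without T350A re-expression replicate 1. The IL11 difference ran from 0.038 without T350A re-expression replicate 3 to 0.21 without T350A re-expression replicate 1, and it moved by over 1.5 times without EZH2 re-expression replicate 1 as well. These intervals do not show that both forms act alike.

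**Figure D3:**
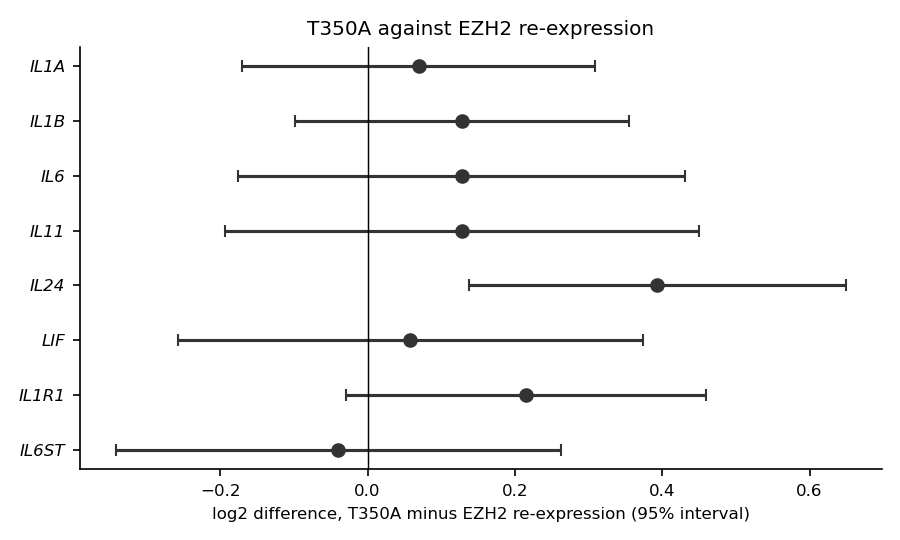
Log2 difference between T350A re-expression and EZH2 re-expression (horizontal axis) for the 8 members, as points with 95% intervals from limma. The intervals of 7 members cross 0, and that of IL24 runs from 0.14 to 0.65 before adjustment.

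Around the members, 72 other genes of the IL1, IL6 and IL20 pathways were followed, 68 of them on the array and 45 tested. After knockdown 4 of the 45 were called higher and 0 lower, beside 1.95% and 1.5% of all genes, with a median difference of 0.073 against -0.0015 for all genes. They were IL19, EBI3, IRAK2 and IL20RB. IRAK2 and IL19 were called under all 24 other settings tried, EBI3 under 22 of 23.

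IL19, a ligand of the IL20 subfamily like IL24, rose by 0.77 ± 0.14 (adjusted p = 0.00713), from 5.87 ± 0.19 to 6.64 ± 0.18. EZH2 re-expression lowered it by 0.59 ± 0.14 (limma, adjusted p = 0.0389), to 6.05 ± 0.28. With T350A it stood at 6.45 ± 0.066, still 0.58 above si-Control (limma, adjusted p = 0.0358). The difference between the forms was 0.40 (limma, adjusted p = 0.456).

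IL20RB, the chain shared by the receptors for IL19, IL20 and IL24, rose by 0.57 ± 0.13 (limma, adjusted p = 0.0336) and stood 0.68 above si-Control with EZH2 (adjusted p = 0.00787) and 0.51 with T350A (adjusted p = 0.0496). The rise was called under 15 of 24 other settings, and was lost without si-Control replicate 1 or 2, without si-EZH2 replicate 1 or 3, with median scaling, with no filter, with only the groups compared, with the replicate block and with chip section as a covariate. Its usual partners IL20RA and IL22RA1 did not pass the detection filter. Of the 11 genes of the IL20 list 5 were tested, with IL10, IL20 and IL10RB not called.

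IRAK2, a kinase that carries the signal on from the IL1 receptor, rose by 0.67 ± 0.13 (limma, adjusted p = 0.00859), and neither form moved it, with differences from si-EZH2 of -0.01 and -0.04. It was still 0.66 (adjusted p = 0.00673) and 0.63 (adjusted p = 0.0146) above si-Control. The other 14 tested genes of IL1 signalling and processing, among them MYD88, IRAK1, TRAF6 and CASP1, were not called after knockdown. None of the 6 comparisons called any of the 6 tested genes of the IL1 family and its receptors, among them IL18, IL1RAP and IL18R1.

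EBI3, the subunit that IL27 and IL35 share and a relative of the soluble IL6 receptor, rose by 0.73 ± 0.14 (limma, adjusted p = 0.00945). It was detected on 9 of 12 arrays, and the call was lost without si-Control replicate 1. It stood 0.63 above si-Control with EZH2 (adjusted p = 0.0153) and stood 0.29 above with T350A (adjusted p = 0.288), and the forms differed by -0.34 (adjusted p = 0.519). The other 6 tested genes of the IL6 family and its receptors, including OSM, OSMR and LIFR, and all 12 tested genes of IL6 family signalling, including JAK1, STAT3 and SOCS3, were not called after knockdown. The receptor chain IL6R did not pass the detection filter.

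Between the re-expressed forms 0 of the 45 pathway genes were called by limma, beside 0% of all genes, and 2050 of all probes had an unadjusted p under 0.05. With T350A 0 of 45 were called against si-EZH2, beside 0.0791% of all genes called lower and 0.0316% called higher, with 3200 of all probes at an unadjusted p under 0.05. With EZH2 re-expression 2 of 45 were called higher than in si-EZH2 and 1, IL19, was called lower. Beside them stood 1.87% of all genes called higher and 1.8% called lower. The 2 higher genes were CAPN1 by 0.52 ± 0.11 (limma, adjusted p = 0.023) and CAPN2 by 0.46 ± 0.10 (adjusted p = 0.0291), which were named after their values were seen. They encode the catalytic subunits of the calpains, proteases that cut the IL1A precursor. T350A re-expression had them at 0.11 and 0.18 above si-EZH2 (limma, adjusted p = 0.714 and 0.455), and the difference between the forms was -0.41 and -0.27 (limma, adjusted p = 0.296 and 0.487). Against si-Control 3 of 45 were called higher and 2 lower with EZH2 re-expression, and 3 higher and 1 lower with T350A. Of all genes 4.32% and 2.11% were called higher, and of the 23313 probes 849 and 423 were called lower. The lower genes were IRAK1 by 0.37 and TAB1 by 0.41 with EZH2 (limma, adjusted p = 0.0366 and 0.037). With T350A it was JAK2, by 0.48 (limma, adjusted p = 0.0401).

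**Figure D4:**
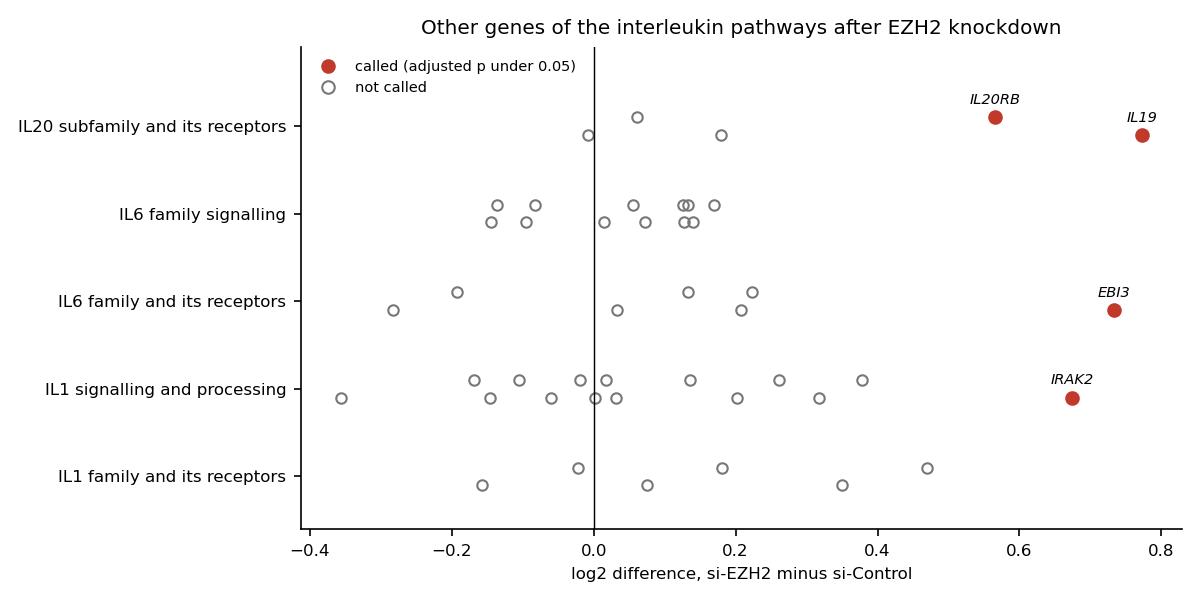
Log2 difference between si-EZH2 and si-Control (horizontal axis) for the 45 tested pathway genes, by list (vertical axis). Filled points were called at an adjusted p under 0.05 in limma and are named, and open points were not called. The 4 called genes, IL19, EBI3, IRAK2 and IL20RB, lie between 0.57 and 0.77.

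Other genes on the arrays had patterns close to those of the members. Across all 12 arrays the normalized values of IL24 went most closely with FST (r = 0.969), the activin-binding protein follistatin, with PAPPA (r = 0.968), a protease of insulin-like growth factor binding proteins, with the neutrophil chemokine CXCL8 (r = 0.961) and with the metalloprotease ADAMTS6 (r = 0.958). For IL1A the nearest were the monocyte chemokine CCL2 (r = 0.947), the peptidases MME (r = 0.940) and DPP4 (r = 0.934) and again PAPPA (r = 0.939). For IL1B they were the metal transporter SLC39A8 (r = 0.989), TMEM158 (r = 0.981), COXFA4L3 (r = 0.961) and TMEM167A (r = 0.961). These are the 4 highest of 12632 genes for each member, over arrays that share the 4 groups, so the values describe likeness of pattern and carry no test.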

How the data were processed

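Expression was measured in 12 samples of BJ cells. The deposited table held non-normalized intensity values on a linear scale, with a detection p-value beside each, per the file headers, in steps of 1 in 770. A deposited table of normalized intensity values by the authors, whose method is not given in the sources used here, served as an alternative. Background correction (normexp from the detection p-values, offset 16), quantile normalization and the log2 step were run with neqc in limma 3.58.1 (R 4.3.3, jsonlite 2.0.0). For the 23313 probes detected (p under 0.05) on 3 arrays or more, limma fitted group means over all 12 arrays at once with moderated variances, with 8 residual and 7.29 prior degrees of freedom. P-values are 2-sided, with Benjamini-Hochberg adjustment over all tested probes. Folds against a group with no detected array are bounds set at the detection limit. Errors of shares returned come from the delta method. The number of arrays limits the precision. The fit was tested on simulated data.

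The members and lists were chosen with earlier results of these data known. Named were all members and their probes, every pathway gene called after knockdown or between the forms (at most 4 a list), the 4 genes most correlated with IL24, IL1A and IL1B, and EZH2. Symbols came from a separate probe annotation, with 30113 probes having 1 symbol, 8 several and 17110 none. Alternatives covered background, offset, scaling, the authors' values, the filter, the moderation, array weights, the samples fitted, a replicate block, chip section, 1 probe per gene and each array left out.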

Additional observations from a re-analysis of the deposited data

How the results depend on the processing

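The members called were recomputed under 24 other settings, 12 of them leaving out 1 array. All 5 knockdown calls held in all 24, and the number of members called between the re-expressed forms was 0 in each. Against si-EZH2, T350A re-expression had 5 members called lower in 6 settings (background left uncorrected, offset raised to 50, the authors' values, a stricter detection filter, robust limma-trend, 1 probe per gene), 1 with only the groups compared, and 1 to 2 with an array left out. EZH2 re-expression against si-Control had 1 called higher with chip section as a covariate and 2 to 4 with an array left out. With the replicate block the counts were 5 after knockdown, 6 and 2 for EZH2 and T350A re-expression against si-EZH2 (IL1R1 joining the first), 0 between the forms and 4 for each against si-Control. The labels do not say whether same-numbered arrays belong together. Over all tested probes, 0 of 18 same-numbered pairs of arrays correlated over 0.1 in their deviations from group means (-0.036 to 0.071). Of the 12 arrays 6 went best with their own number. Replicate 2 was the lowest array in all 4 groups for IL1A, IL1R1 and LIF, and not for the other members tested. These correlations therefore cannot decide whether arrays were paired by number. Pathway genes called after knockdown, an alternative added after seeing the data, numbered 2 to 4 with an array left out, and 0 between the forms in all 24 settings. The cause of these changes was not tested.

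Of 1146 recomputed differences of single members 1122 counted as the same, 17 moved by more than the replicate SD, and 7 differences between the forms reversed, none of them called. Between the forms, the same meant an unchanged sign and side of the threshold. In the other 5 comparisons it meant a shift smaller than the replicate SD, whether or not the call changed. For T350A re-expression against si-EZH2, where no IL1A or IL1B value moved by more, IL1A was called in 17 and IL1B in 7 of 24 settings. With an array left out, T350A minus EZH2 ran from -0.0291 to 0.1495 for IL1A, from -0.1485 to 0.0527 for IL6ST, from -0.0523 to 0.2764 for IL6 and from -0.0777 to 0.2015 for LIF, and median scaling gave 0.0024 for IL6ST. In the other 5 comparisons uncalled differences of IL6ST, LIF and IL1R1 changed sign 10 times.

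Counts over all probes depended on the setting: 663 after knockdown (384 to 1199), 671 and 24 for EZH2 and T350A re-expression against si-EZH2 (203 to 1489 and 3 to 420), 2 between the forms (1 to 50), and 1688 and 830 against si-Control (282 to 2704 and 313 to 1650). With 1 probe per gene 6 genes, no member among them, were called between the forms. Median scaling moved the share called higher from 54.8% to 39.1% after knockdown, from 52.2% to 37.6% for EZH2 re-expression against si-EZH2, and from 49.7% to 23.6% and 49.0% to 27.2% for the forms against si-Control. LIF, untested under the stricter filter, and the second IL24 probe lay close to background, which limits what their values can show.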
